A study of Saccharomyces cerevisiae with 41 samples.

Results

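The platform of the yeast small ribosomal subunit is built from helices h22 to h27 of the 18S ribosomal RNA (rRNA). It was taken as the nucleotides listed at positions 851 to 1140 of the deposited table, which are 290 of 1800 positions. Of these, 258 positions run from h22 through h26 with the strand before h22 (851 to 1108) and 28 form h27 (1109 to 1136), followed by a short linker. The rule is a range of positions and used no measured value. Limits of single helices within this range were set by alignment to the E. coli helices, as background knowledge. RDN18-1 and RDN18-2, the genes of this rRNA on chromosome XII, are each 1800 nucleotides long in the RefSeq table of R64. No chromosomal coordinates are given because the deposited table names no build.

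Reverse transcription drop-off was measured on rRNA from immunoprecipitated assembly intermediates of Saccharomyces cerevisiae. All strains were BY4741 derivatives with a knocked-in tag on the bait. The late 1M7 samples were Nob1 (nob1-TAP, 2 samples), Rio1 (rio1-HTP, 3), 80S_like (fun12-TAP with GAL::3HA-fap7, 2) and 80S (fun12-TAP, 3), and the mid-early 1M7 samples were Enp1 (enp1-HTP, 2), Ltv1 (ltv1-HTP, 2), Rio2 (rio2-HTP, 2) and Tsr1 (tsr1-HTP, 3). The rRNA was 18S in 80S and the precursor 20S in the other 7 purifications. The late control pool held 3 untreated samples of nob1-TAP and fun12-TAP strains, labelled as 18S, so that Nob1, Rio1 and 80S_like, which are 20S by their labels, were set against a control of 18S. The mid-early pool held 4 untreated samples of the 4 mid-early strains, all of 20S. Rio1 had no untreated sample of its own and was placed with the late control. NAI was used on Rio1 (1 sample), 80S (2) and Tsr1 (2), with DMSO samples of 80S (2) and Tsr1 (2), and for NAI on Rio1 the DMSO column of Tsr1 served as control. DMS was used on 80S (3 samples, 3 controls), all from fun12-TAP. The growth medium and time of each strain are not given, so the state of Fap7 in the 80S_like samples is known only from the name of the strain. The table gives 1 mean column per group, made by the authors, with neither replicate values nor read depth. Errors below are therefore spreads between purifications of a stage, and it is not stated whether samples of a group came from separate cultures.

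The platform carries the ribosomal proteins eS1, uS11 and eS26, and its h23 and h24 loops line the path of mRNA and tRNA between the subunits. In cytoplasmic pre-40S particles the assembly factor Pno1 sits on the platform beside Nob1, the nuclease that makes the 18S 3' end. Enp1 and Ltv1 bind at the beak, Tsr1 is a GTPase-like factor on the subunit interface, Rio1 and Rio2 are ATPases, and Fun12 is the initiation factor eIF5B, which joins the subunits. The reagents 1M7 and NAI acylate the 2'-hydroxyl of flexible nucleotides, whereas DMS methylates unpaired adenines and cytosines. An adduct stops reverse transcriptase 1 nucleotide 3' of the modified nucleotide, so each position below names the stop, and the probed nucleotide is its 5' neighbour. Reactivity is the excess of the treated rate over its matched control, in units of the average of a column's high values (the 8% that follow its top 2%). A reactivity of 0 means no stops beyond the control, and 1 is the level of a strongly reactive nucleotide.

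The sequences of 3 helices from the deposited table carry most of what follows and are shown with capitals at each nucleotide whose stop, 1 nucleotide 3', reached a 1M7 reactivity of 0.3. Late and mid-early lines use the mean of the 4 columns of a stage.
h23 (884 to 928), late mean: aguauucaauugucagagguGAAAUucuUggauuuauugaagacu
h23 (884 to 928), mid-early mean: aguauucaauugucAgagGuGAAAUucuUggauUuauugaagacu
h24 (980 to 1021), late mean: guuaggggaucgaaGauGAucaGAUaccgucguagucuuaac
h24 (980 to 1021), mid-early mean: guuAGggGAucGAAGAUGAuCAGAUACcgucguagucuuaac
h26 (1039 to 1092), 80S: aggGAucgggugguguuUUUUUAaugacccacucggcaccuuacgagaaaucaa
h26 (1039 to 1092), 80S_like: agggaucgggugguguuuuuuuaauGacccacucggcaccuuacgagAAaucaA
In h23 both stages share the same GAAAU run of the loop. In h24 the late mean has 6 capitals and the mid-early mean 19. In h26 the U run of the loop is in capitals in 80S and not in 80S_like.

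**Figure D1:**
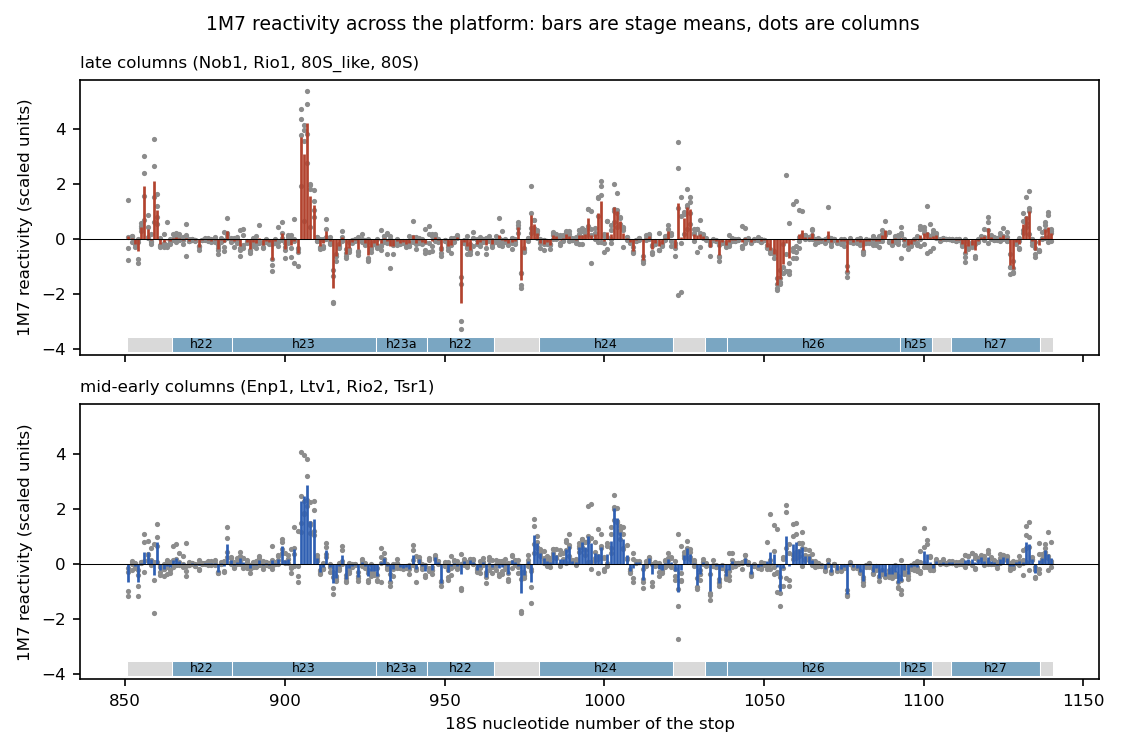
1M7 reactivity (scaled units) at each of the 290 stops against the 18S nucleotide number, late columns above and mid-early columns below; bars are stage means, grey dots the 4 columns, and boxes mark helices (blue) and linkers (grey). The stops at 905 to 907 of h23 stand highest in both stages, and bars of h24 (980 to 1021) are mostly lower in the late panel.

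With 1M7, fewer platform stops were reactive in the late columns than in the mid-early ones. A reactivity of 0.3 or more was reached at 43 stops in Nob1, 37 in Rio1, 42 in 80S_like and 48 in 80S, and at 50 in Enp1, 52 in Ltv1, 54 in Rio2 and 54 in Tsr1. Every late column had fewer reactive platform stops than every mid-early column. Nob1 had 14.8% of the platform and 18.0% of the remaining stops reactive, Rio1 12.8% and 17.5%, 80S_like 14.5% and 15.8%, and 80S 16.6% and 16.5%. Enp1 had 17.2% and 17.5%, Ltv1 17.9% and 16.5%, Rio2 18.6% and 17.7%, and Tsr1 18.6% and 15.3%. The platform share thus lay below that of the rest in Nob1, Rio1, 80S_like and Enp1 and above it in the other 4, with no test. Each column is scaled by its own high values, and the mean rate differed little between columns (0.0275 to 0.0311 over the 18S), so these are relative measures.

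Within the platform, 10 stops were reactive in all 8 1M7 columns, of 44 in the whole 18S, and 168 were reactive in none. The 10 lie in the h23 loop (A905, A906, A907, U908 and U909), at A978 before h24, in the h24 loop (A1003, U1004 and A1005) and at A1026 behind h24. The paired helix h22, which joins the platform to the body, was the quietest large element, with 32 of its 40 stops reactive in no column. In h23a 12 of 16 stops were reactive in none, and in h25 12 of 17. The highest stop of h22, U882, had 0.161 in Nob1, 0.239 in Rio1, 0.0336 in 80S_like and 0.792 in 80S, against 0.928 in Enp1, 0.441 in Ltv1, 0.247 in Rio2 and 1.33 in Tsr1. The stages overlap there and the difference was not called (log2 -1.18, SE 0.72, limma adjusted p = 0.35).

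The loop of h23, which faces the E site of the mature subunit, held the highest 1M7 values of the platform. A907, the stop for nucleotide A906, had a reactivity of 3.83 in Nob1, 4.93 in Rio1, 5.41 in 80S_like and 2.76 in 80S, against 2.09 in Enp1, 3.80 in Ltv1, 2.32 in Rio2 and 3.20 in Tsr1. A905 had 4.38, 3.81, 4.75 and 1.95 in the same late columns and 1.15, 4.06, 1.49 and 2.46 in the same mid-early columns. Both stops were lowest in 80S among the late columns and highest in Ltv1 among the mid-early ones, and the stages overlap. A906 had 0.672 in 80S, while the other late columns had 4.16 in Nob1, 3.56 in Rio1 and 3.98 in 80S_like, and the mid-early columns had 1.80 to 3.96. None of the 5 loop stops from A905 to U909 was called between the stages, with limma adjusted p from 0.32 to 0.91. On the 5' side of the loop G901, G902 and G904 lay under the filter on low values (a mean of 0.1), although G904 had 1.19 in Ltv1. U903 was lowest in 80S, at -0.876, and highest in Ltv1, at 1.35.

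The comparison of late with mid-early purifications asks which platform nucleotides change flexibility as the pre-40S particle matures. Of the 290 platform stops, 78 averaged 0.1 or more across the 8 columns and were tested among 504 of the whole 18S. The test was limma on log2(reactivity + 0.1), with values below 0 set to 0 and Benjamini-Hochberg adjustment at 0.05. Rises in the late stage were called at 4 platform stops (A855, A859, A973 and A977), 5.13% of those tested beside a background of 2.58% in the whole 18S. A fall was called at 1 stop (G980), 1.28% beside a background of 3.57%. All 4 rises passed the filter on low values through their late columns, since their mid-early means lay between -0.682 and 0.0421, and G980 passed through its mid-early columns. These shares are therefore descriptions. With no filter A855 was still called (limma adjusted p = 0.023), and A859, A973 and A977 were not (limma adjusted p = 0.16, 0.076 and 0.082). The median log2 difference of the tested platform stops was -0.62, with 48 of 78 below 0 (61.5%). That of all tested stops was -0.29, with 290 of 504 below 0 (57.5%), so the platform share was near the background. By segment the median was -0.82 in h24, -0.99 in h26, -0.61 in h23 and 0.06 in h27. It was 1.94 over the 5 tested stops before h22 and 0.93 over the 5 of the linker after h24. The p-values measure the spread between purifications after values below 0 were set to 0, which removes the spread among such values. At A977 all mid-early columns were below 0, so they had no spread in the test. On the linear scale, without this step, 0 platform rises were called, and A977 had a limma adjusted p of 0.091. G980 was still called there (limma adjusted p = 0.041). An error in a control would touch the 4 columns of its stage alike and is not in the p-values.

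Of the 4 rises, A855 and A859 lie in the strand between expansion segment 6 and h22, and A973 and A977 in the linker before h24. A855 had a reactivity of 0.490 in Nob1, 0.298 in Rio1, 0.402 in 80S_like and 0.602 in 80S, against 0.0119 in Enp1, 0.0291 in Ltv1, 0.0559 in Rio2 and 0.0716 in Tsr1. Every late value is above every mid-early value, and the log2 difference was 1.94 (SE 0.49, limma adjusted p = 0.040). A977 had 0.967 in Nob1, 0.403 in Rio1, 1.96 in 80S_like and 0.231 in 80S, against -0.203 in Enp1, -0.838 in Ltv1, -1.44 in Rio2 and -0.252 in Tsr1. All late columns lie above their control and all mid-early columns below theirs (log2 2.96, SE 0.63, limma adjusted p = 0.024).

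A859 averaged 2.12 ± 1.31 in late and -0.407 ± 1.07 in mid-early columns (SD, n = 4 purifications each; log2 3.29, SE 0.80, limma adjusted p = 0.038). Rio1 at 0.621 was below Rio2 at 0.717, so the stages overlap. A973 averaged 0.448 ± 0.165 in late and -0.0962 ± 0.196 in mid-early columns, without overlap (log2 2.11, SE 0.52, limma adjusted p = 0.039). A973 is the stop just 5' of Am974, a 2'-O-methylated adenosine of yeast 18S rRNA.

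At all 4 rises the late control itself stopped less often than the mid-early control, and the calls were lost when the controls were made equal. At A855 it was 0.0258 in the late and 0.0341 in the mid-early control, at A859 0.166 and 0.201, at A973 0.0380 and 0.0549, and at A977 0.0868 and 0.125. With 1 common control for all 8 columns, or with the treated rates and no subtraction, 0 platform rises were called by limma. The treated rates at A977 were 0.124 in Nob1, 0.103 in Rio1, 0.157 in 80S_like and 0.0918 in 80S, against 0.119 in Enp1, 0.0974 in Ltv1, 0.0796 in Rio2 and 0.118 in Tsr1, which overlap. A973 changed sign, with a log2 difference of -0.18 under the common control and -0.13 without subtraction. Only at A855 did the treated rates alone stand apart: 0.0375 (Rio1) to 0.0448 (Nob1) in the late columns and 0.0345 (Enp1) to 0.0360 (Tsr1) in the mid-early ones. After scaling and without subtraction, however, its log2 difference was 0.0015 (limma adjusted p = 0.995), and with 1 common control it was 0.53 (limma adjusted p = 0.54). A855 was 1 of 78 platform stops with higher late rates and no overlap, where the background was 2.18%.

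**Figure D2:**
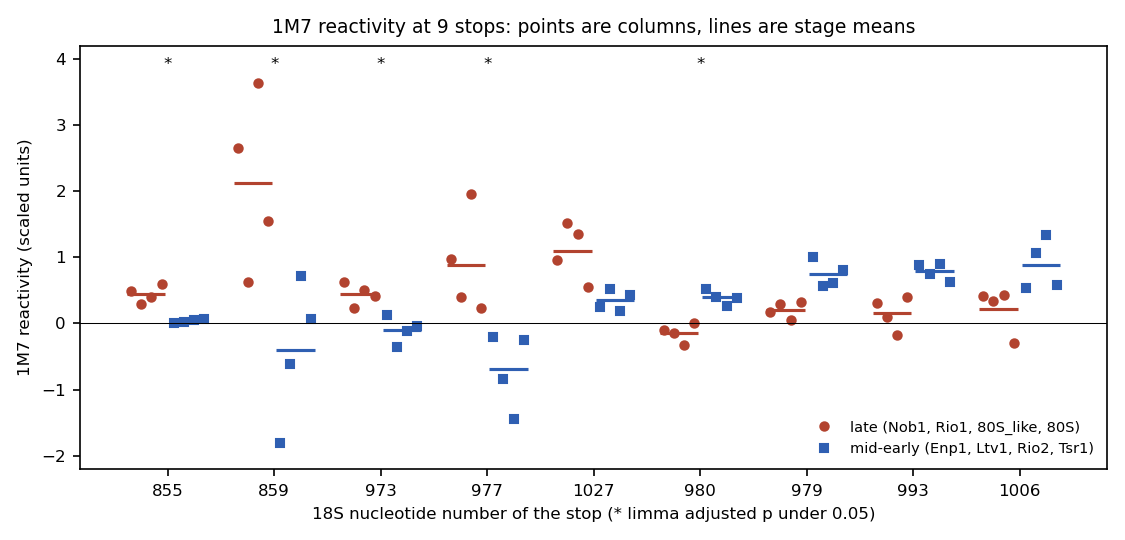
1M7 reactivity (scaled units) at 9 stops, named by 18S nucleotide number, in the 4 late columns (circles) and the 4 mid-early columns (squares), with stage means as lines and a star where limma's adjusted p was under 0.05. Late values stand above mid-early values at 855, 973, 977 and 1027 and below them at 980, 979, 993 and 1006, while 859 overlaps.

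In h24, the helix whose loop meets the P site, most tested stops were lower in the late columns. G980, at the foot of the helix, had a reactivity of -0.103 in Nob1, -0.144 in Rio1, -0.318 in 80S_like and 0.0103 in 80S, against 0.522 in Enp1, 0.403 in Ltv1, 0.265 in Rio2 and 0.389 in Tsr1. The late columns lie at or below their control and the mid-early columns above theirs, and the log2 difference was -2.25 (SE 0.43, limma adjusted p = 0.017). The untreated rate of G980 was 0.0248 in the late and 0.0182 in the mid-early control, the reverse of the order at the 4 rises. The call was lost with 1 common control (log2 -1.59, limma adjusted p = 0.096) and without subtraction (log2 -0.61, limma adjusted p = 0.15). Of the 23 tested stops of h24, 18 had a log2 difference below 0 (78.3%), beside 57.5% of all tested stops. A reactivity of 0.3 was reached in h24 at 13 stops in Nob1, 10 in Rio1, 9 in 80S_like and 7 in 80S, against 11 in Enp1, 19 in Ltv1, 19 in Rio2 and 17 in Tsr1. Enp1 thus lay within the late range by this count. With other controls, pseudocounts or scaling, on the linear scale, with a filter at 0.3 and in every leave-one-out fit, the h24 median stayed below 0 and below the median of all tested stops. It was -0.92 with 1 common control and -0.50 without subtraction, where all tested stops had -0.36 and -0.25. This shift was not particular to h24. In h26, 8 of 10 tested stops were below 0, with a median of -0.99. That median was -1.10 with 1 common control and -0.58 without subtraction. With no filter, all 42 stops of h24 had a median of -0.68, with 35 below 0 (83.3%), and 61.1% of all 18S stops were below 0.

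Counting stops at which the 4 late columns all lay below the 4 mid-early columns gave 12 in the platform, 15.4% of those tested, beside a background of 10.1%. Of these, 8 are in h24 (G980, G984, G985, A992, A993, A1005, C1006 and C1007), and the others are C910 of h23, A979 before h24, G1064 of h26 and G1118 of h27. The opposite order, late above mid-early, was seen at 4 stops (A855, A973, A977 and A1027), 5.13% beside a background of 3.57%, and at 0 of the 23 in h24. With the treated rates themselves, 7 of the 23 stops in h24 and 10 of 78 in the platform (12.8%) were lower in every late column, where the background was 12.1%. The platform as a whole was thus near the background, and h24 held most of its stops of this kind.

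A993, in the stem below the h24 loop, had 0.303 in Nob1, 0.0992 in Rio1, -0.180 in 80S_like and 0.398 in 80S, against 0.883 in Enp1, 0.745 in Ltv1, 0.892 in Rio2 and 0.621 in Tsr1. The stages do not overlap, but the difference of -1.80 (SE 0.62) missed the threshold (limma adjusted p = 0.13). A979 had 0.175, 0.292, 0.0532 and 0.324 in Nob1, Rio1, 80S_like and 80S, against 1.00, 0.567, 0.606 and 0.807 in Enp1, Ltv1, Rio2 and Tsr1 (log2 -1.52, SE 0.56, limma adjusted p = 0.15). C1006 at the 3' end of the loop had 0.408, 0.334 and 0.431 in Nob1, Rio1 and 80S_like and -0.298 in 80S, against 0.536, 1.07, 1.34 and 0.583 in the mid-early columns in the same order (log2 -1.49, SE 0.67, limma adjusted p = 0.24). The other h24 stops of the 12 had log2 differences from -1.36 (A992) to -0.72 (A1005), none of them called.

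The h24 loop itself stayed reactive in both stages on its 3' side. A1003 had 1.09 in Nob1, 2.00 in Rio1, 0.617 in 80S_like and 1.04 in 80S, against 1.59 in Enp1, 2.00 in Ltv1, 2.05 in Rio2 and 2.49 in Tsr1. U1004 had 1.67, 0.952, 1.08 and 0.462 in the late columns and 1.57, 1.53, 2.05 and 1.52 in the mid-early ones. The 5' side of the loop split the late columns instead. U999 had 1.60 in Nob1, 1.95 in Rio1 and 2.14 in 80S_like but -0.107 in 80S, against 0.209 in Enp1, 1.09 in Ltv1, 0.559 in Rio2 and 0.638 in Tsr1. A998 followed the same order, with 0.861, 1.50 and 1.55 in Nob1, Rio1 and 80S_like, -0.0918 in 80S and -0.319 to 1.26 in the mid-early columns. Stops U999 and C1000 probe nucleotide A998 and pseudouridine 999. C1000 stayed between -0.475 (80S) and 0.232 (Rio2) in all 8 columns.

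**Figure D3:**
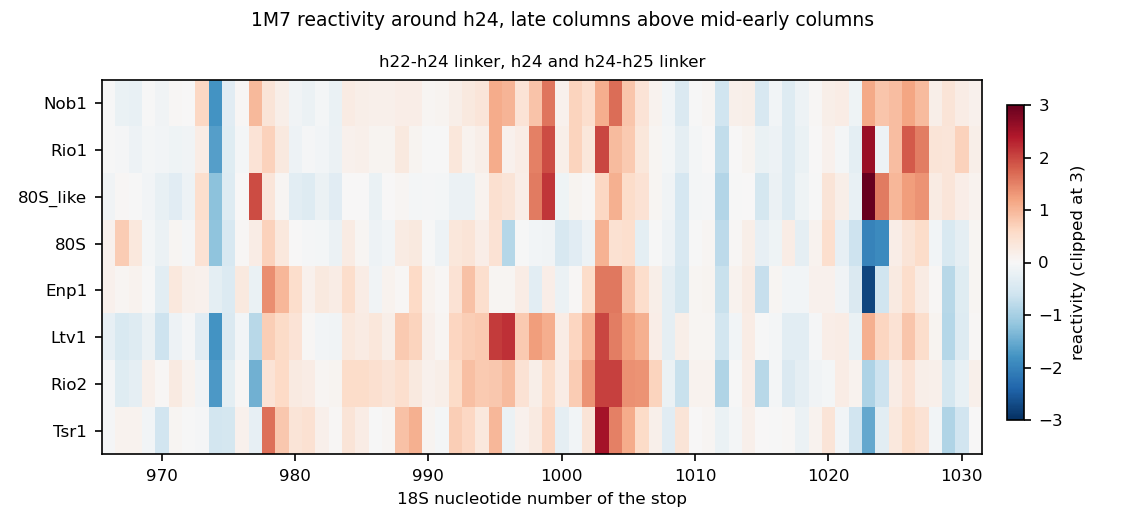
1M7 reactivity (colour, clipped at 3 in both directions) at each stop from 966 to 1031 (horizontal axis, 18S nucleotide number) in the 4 late columns above the 4 mid-early columns. Red at 1003 to 1005 runs through all rows, red at 998 and 999 is strongest in Nob1, Rio1 and 80S_like, and 1023 is red in those 3 and in Ltv1 and blue in the others.

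The stage comparison depended on mature 80S, the only late column of 18S rRNA. Without 80S, 524 stops of the 18S were tested, 82 of them in the platform. Rises were then called at 7 platform stops (A855, A859, A973, U999, A1023, A1025 and A1027), 8.54% beside a background of 10.1%. Falls were called at 8 (G899, A979, G980, U989, A993, U1059, U1060 and A1061), 9.76% beside a background of 13.0%. Both platform shares are near or below those of the whole 18S. The late columns left, all of 20S, were set against the late control of 18S. Among these calls, every untreated 18S column lay below every 20S column at the rises A973 and A1025. They lay above at the falls U989, U1059 and U1060, and below at the fall G899. At the remaining calls they overlapped. These calls were not tested with other controls. A1025, G899 and U989 are named here after their values were seen. Without any 1 of the other 7 purifications, 0 or 1 platform rises and 0 or 1 falls were called.

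The linker behind h24 showed the same split of the late columns. A1027 had 0.954 in Nob1, 1.52 in Rio1, 1.35 in 80S_like and 0.557 in 80S, against 0.246 in Enp1, 0.528 in Ltv1, 0.185 in Rio2 and 0.433 in Tsr1. The late columns were higher without overlap, though not past the threshold with all 8 columns (log2 1.41, SE 0.54, limma adjusted p = 0.16); without 80S the difference was 1.67 (limma adjusted p = 0.036). A1023 had 1.13 in Nob1, 2.59 in Rio1 and 3.55 in 80S_like but -2.01 in 80S, against -2.74 in Enp1, 1.07 in Ltv1, -0.932 in Rio2 and -1.54 in Tsr1. This stop is one of the strongest of the untreated platform, with 0.162 in the late and 0.173 in the mid-early control. Its treated rates were 0.207 in Nob1, 0.264 in Rio1, 0.290 in 80S_like and 0.120 in 80S, against 0.0850 in Enp1, 0.208 in Ltv1, 0.143 in Rio2 and 0.132 in Tsr1. Ltv1 thus went with the 20S late columns, and 80S with Enp1, Rio2 and Tsr1.

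In the U-rich loop of h26, a helix near the mRNA exit, the columns fell into the opposite pattern. U1057 had a reactivity of -0.534 in Nob1, -1.17 in Rio1 and -1.15 in 80S_like but 2.33 in 80S, against 1.88 in Enp1, -0.529 in Ltv1, 0.570 in Rio2 and 2.15 in Tsr1. U1060 had -0.241, -0.459 and -0.663 in Nob1, Rio1 and 80S_like and 1.39 in 80S, against 1.08, 0.436, 0.226 and 1.49 in Enp1, Ltv1, Rio2 and Tsr1. At both stops 80S, Enp1 and Tsr1 were high and the 3 late columns of 20S were below their control. U1059 and A1061 repeated this order, with 1.29 and 1.05 in 80S and -0.323 to -0.684 and -0.304 to 0.0814 in the other late columns. Over the whole of h26, a reactivity of 0.3 was reached at 0 stops in Nob1, 2 in Rio1, 3 in 80S_like and 8 in 80S, against 11 in Enp1, 6 in Ltv1, 6 in Rio2 and 7 in Tsr1. With all 8 columns none of these 4 loop stops was called (limma adjusted p from 0.28 for U1060 to 0.41 for U1057).

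**Figure D4:**
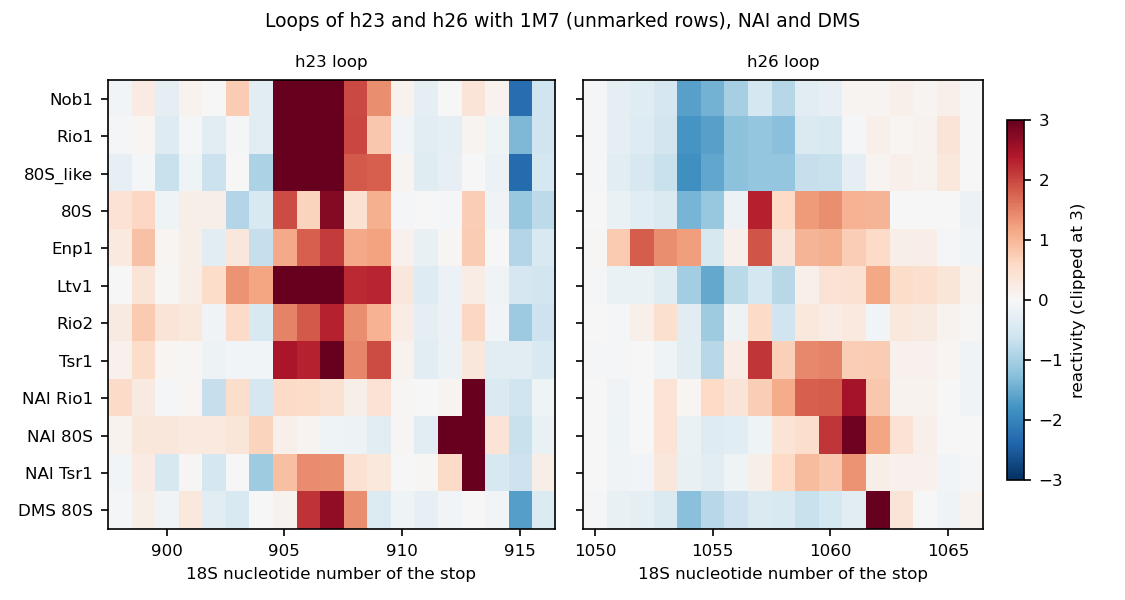
Reactivity (colour, clipped at 3 in both directions) at stops around the h23 loop (left) and the h26 loop (right), horizontal axis in 18S nucleotide number, for the 8 1M7 columns, the 3 NAI columns and DMS on 80S. With 1M7 the h23 stops 905 to 909 are red in every row, whereas NAI is darkest at 913; the h26 stops 1057 to 1061 are blue or pale in Nob1, Rio1 and 80S_like and red in 80S, Enp1 and Tsr1, and 1060 and 1061 are red with NAI.

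Pairs of columns were compared as differences in reactivity of 0.5 or more, with 1 column a side and no test. Between 80S and 80S_like, both purified through Fun12, 75 platform stops differed (43 higher and 32 lower in 80S), 25.9% beside a background of 27.9%. The largest rises in 80S were U1057, U1060 and U1059 of the h26 loop, and the largest falls were A1023, U1024 and A906. At U1057 the treated rate was 0.128 in 80S and 0.0371 in 80S_like with a shared control of 0.0785, so the rates themselves lay on both sides of it. One unit of reactivity stood for a rate of 0.0213 in 80S and 0.0360 in 80S_like, so equal differences in rate count for more in 80S.

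Between Nob1 and Rio2, 47 platform stops differed, 16.2% beside a background of 20.4%, with 22 higher and 25 lower in Nob1. A905, A977 and A906 were the largest rises, and A955, A915 and U1054 the largest falls. At A955 in h22 the reactivity was -3.27 in Nob1 and -0.896 in Rio2, where the treated rates were 0.0424 and 0.0581 and the controls 0.170 (late) and 0.0865 (mid-early). That difference follows the controls more than the treated rates.

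Between Rio1 and Tsr1, 65 platform stops differed, 22.4% beside a background of 26.8%, with 25 higher and 40 lower in Rio1. A1023 (2.59 in Rio1 and -1.54 in Tsr1), A907 and A1093 were the largest rises, and U1057 (-1.17 in Rio1 and 2.15 in Tsr1), A955 and U1058 the largest falls. A1093 lies in the 3' strand of h25, with 0.235 in Rio1 and -1.12 in Tsr1. Its treated rates were 0.0543 and 0.0466, and its controls 0.0451 (late) and 0.0765 (mid-early). At A955 the treated rate was higher in Rio1 (0.105) than in Tsr1 (0.0961), with controls of 0.170 and 0.0865. Both differences follow the controls more than the treated rates. Between 80S and Tsr1, a pair added after its values were seen, 39 stops differed, 13.4% beside a background of 17.2%, with 9 higher and 30 lower in 80S. These pairs share columns or controls with each other, and 80S_like and 80S differ in strain and in the form of the rRNA as well.

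In h27, which packs beside h44 near the decoding site, none of the 9 tested stops was called. Their median log2 difference was 0.06, with 4 of 9 below 0, and G1118 was lower in every late column. Of the 5 stops from G1122 to G1126, G1122 probes C1121, just 5' of the tetraloop, and the others probe the loop. G1122 and C1123 stayed near 0 in all 8 columns and ran from -0.151 (C1123 in Ltv1) to 0.128 (G1122 in Tsr1). A1125 had 0.0443 in Nob1, 0.134 in Rio1, 0.0265 in 80S_like and 0.420 in 80S, against 0.335 in Enp1, 0.137 in Ltv1, 0.157 in Rio2 and 0.329 in Tsr1. Here too 80S, Enp1 and Tsr1 were the highest columns. The reactive part of h27 was its 3' strand, where A1133 had 0.20 in Nob1, 1.03 in Rio1, 1.15 in 80S_like and 1.75 in 80S, against 0.980 in Enp1, 0.619 in Ltv1, -0.245 in Rio2 and 1.54 in Tsr1. The number of reactive stops in h27 ran from 0 in Rio2 to 9 in Tsr1, both mid-early, and was 3, 4, 4 and 5 in Nob1, Rio1, 80S_like and 80S.

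None of the stops for the modified nucleotides of the platform reached a 1M7 reactivity of 0.3 in any of the 8 columns. G1127, the stop for Gm1126, a 2'-O-methylated guanosine, had an untreated rate of 0.0501 in the late control, 0.0452 in the 80S DMSO column and 0.0457 in the DMS control, against 0.0264 in the mid-early control and 0.0429 in the Tsr1 DMSO column. Treated rates there were 0.0115 in Nob1, 0.0106 in Rio1, 0.00486 in 80S_like and 0.0386 in 80S, against 0.0268 in Enp1, 0.0184 in Ltv1, 0.0219 in Rio2 and 0.0257 in Tsr1. The reactivity was therefore negative in the late columns, from -1.26 (80S_like) to -0.542 (80S), and near 0 in the mid-early ones, from -0.242 (Ltv1) to 0.0114 (Enp1). C975, the stop for Am974, and G1008, the stop for Cm1007, were below 0 in all 8 1M7 columns, from -0.534 to -0.289 and from -0.343 to -0.0632. NAI in Rio1 alone gave 1.18 at C975.

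NAI had its strongest platform stop at another site than 1M7. It reached a reactivity of 0.3 at 36 platform stops in Rio1 (12.4%) and 33 in 80S (11.4%), against 35 in Tsr1 (12.1%). These shares were close to those of the remaining stops, 12.9% in Rio1 and 11.9% in 80S, against 13.5% in Tsr1. A reactivity of 0.7 was reached at 12 platform stops in Rio1 and 6 in 80S, against 15 in Tsr1, and at 107, 100 and 120 of the 1509 remaining stops in the same order. The strongest NAI stop was G913, just 3' of the h23 loop and the stop for U912, with 3.40 in Rio1, 3.80 in 80S and 4.69 in Tsr1. With 1M7 the same stop had 0.380, 0.0875, -0.00186 and 0.735 in Nob1, Rio1, 80S_like and 80S, and 0.233 (Ltv1) to 0.760 (Enp1) in the mid-early columns. The NAI-treated rates at G913 were 0.215 in Rio1, 0.135 in 80S and 0.232 in Tsr1, over DMSO rates of 0.00368 in 80S and 0.00579 in Tsr1. One unit of NAI reactivity stood for a rate of 0.0615 in Rio1 and 0.0345 in 80S, against 0.0483 in Tsr1. Equal excess rates thus count for most in 80S, here and in the NAI comparisons below.

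The h23 lines with capitals for NAI use the same threshold of 0.3. Only the 80S line has none of the GAAAU run seen with 1M7. The nucleotide probed at G913 is in capitals in every NAI line and in both 1M7 lines above.
h23 (884 to 928), NAI Rio1: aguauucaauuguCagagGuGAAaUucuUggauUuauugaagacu
h23 (884 to 928), NAI 80S: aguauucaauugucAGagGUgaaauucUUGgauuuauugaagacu
h23 (884 to 928), NAI Tsr1: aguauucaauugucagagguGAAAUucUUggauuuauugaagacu
The GAAA of the loop is in capitals in Tsr1, its GAA in Rio1, and none of it in 80S. A907 had 0.468 in Rio1 and -0.126 in 80S, against 1.39 in Tsr1, and A906 had 0.540 and 0.0794, against 1.42. U912 was 3.23 in 80S alone, with 0.0902 in Rio1 and 0.585 in Tsr1.

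In the h26 loop NAI was high in all 3 purifications. A1061 had 2.50 in Rio1 and 2.92 in 80S, against 1.34 in Tsr1, and U1060 had 1.82 and 2.14, against 0.812. The 1M7 column of Rio1, in contrast, was at -0.0539 for A1061 and -0.459 for U1060. The 2 reagents were used on different libraries and with unlike controls in Rio1. These were the late control of 18S for 1M7 and the Tsr1 DMSO column of 20S for NAI. Every untreated 18S column lay above every 20S column at U1060, whereas they overlapped at A1061. The difference between the reagents in Rio1 was not tested. In the h24 loop NAI at A1003 was 0.654 in Rio1 and 0.157 in 80S, against 2.00 in Tsr1.

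Of the platform, 44 stops differed by 0.5 or more between NAI on 80S and on Tsr1, 15.2% beside a background of 22.3%, with 17 higher and 27 lower in 80S. U912, G904 and A1061 were the largest rises and A1003, A907 and A906 the largest falls. Between NAI on Rio1 and on Tsr1, 37 stops differed, 12.8% beside a background of 14.0%, with 20 higher and 17 lower in Rio1. A974 (1.70 in Rio1 and 0.030 in Tsr1), A1113 of h27 (1.32 and -0.315) and A955 (0.429 and -0.985) were the largest rises, and A859 (-1.38 and 1.20), A856 (-0.810 and 0.851) and A1003 the largest falls. The extremes of these NAI pairs were picked after the values were seen. At A977 and A855, among the rises called with 1M7, NAI was lowest in Rio1 and close in 80S and Tsr1. A977 had -0.781 in Rio1 and 0.0693 in 80S, against 0.0872 in Tsr1, and A855 had -0.143 and 0.0536, against 0.105. The other called rises were not close in 80S and Tsr1. A859 had 0.0373 in 80S, against 1.20 in Tsr1, and A973 reached 0.3 with NAI in 80S only.

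**Figure D5:**
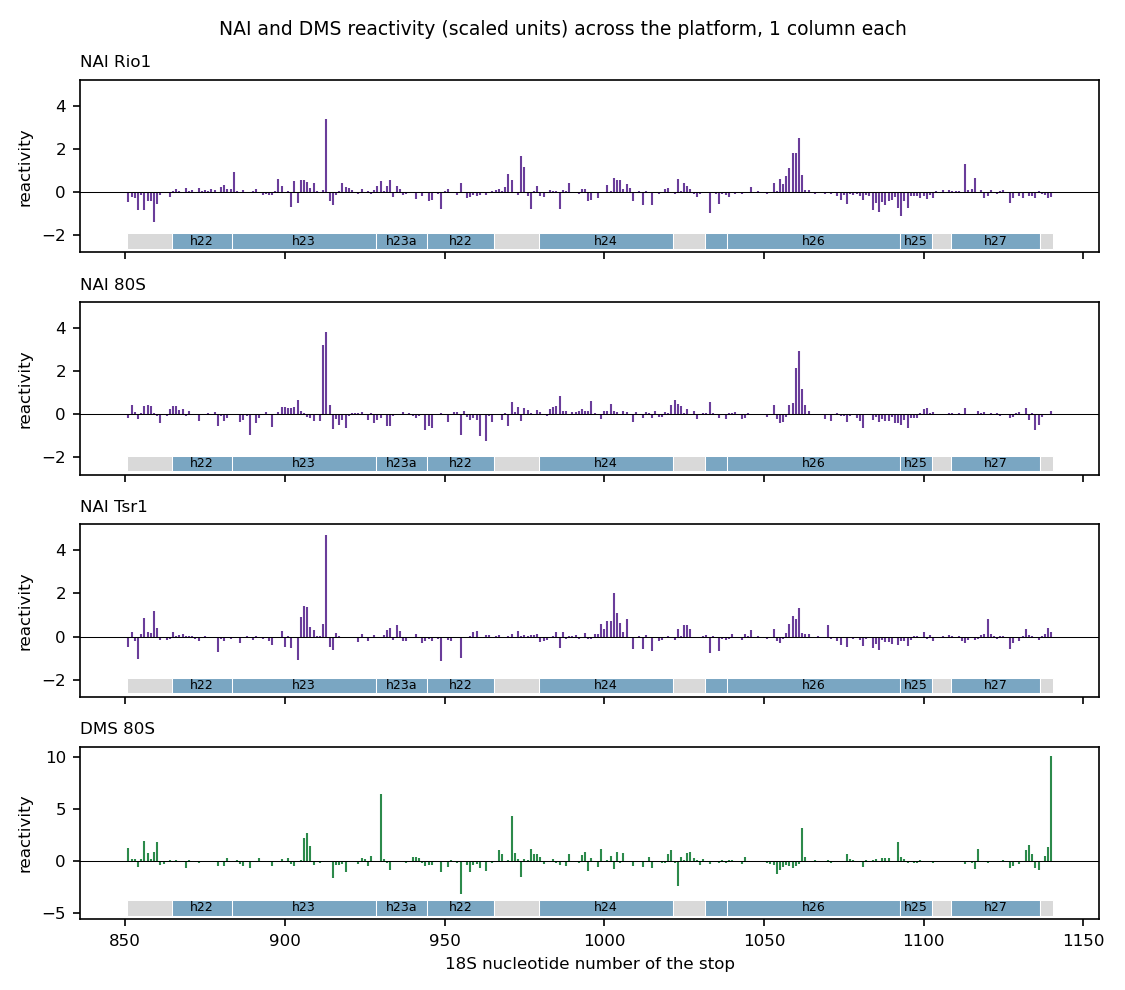
Reactivity (scaled units) with NAI on Rio1, 80S and Tsr1 and with DMS on 80S at each platform stop, against the 18S nucleotide number; 1 deposited column each, with boxes for helices (blue) and linkers (grey). NAI peaks at 913 and near 1061 in all 3 columns, and DMS peaks at 930, 971 and 1140.

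DMS on mature 80S marked adenines of the platform almost alone. A reactivity of 0.3 was reached at 51 platform stops, 17.6%, and at 13.9% of the other stops. By the nucleotide 5' of the stop these were 48 of 86 adenines, 1 of 48 cytosines, 2 of 76 guanines and 0 of 80 uridines. Of the 27 stops at 0.7 or more, 25 had an adenine 5' of the stop, and the other 2 were A859 and A977, stops for guanines and named above as rises with 1M7. The strongest were G1140 (10.1), where A1139 leads into h28, A930 (6.39) in h23a, A971 (4.30) in the linker before h24 and A1062 (3.18) in the h26 loop. At G1140 the rate was 0.379 with DMS and 0.0113 in its control, whereas 1M7 there ran from -0.128 (Tsr1) to 0.784 (Rio2).

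In the h23 loop the adenines were open to DMS in 80S, with 2.18 at A906, 2.66 at A907 and 1.39 at U908. In the linker before h24, DMS reached 0.3 at 8 of 14 nucleotides, among them all 3 adenines that end it, and in h24 at 10 of 42. The line for the linker and h24 shows them in capitals.
linker (966 to 979), DMS 80S: AAucAAgaacGAAA
h24 (980 to 1021), DMS 80S: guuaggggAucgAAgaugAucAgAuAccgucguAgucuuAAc
A970 is the nucleotide behind the strong stop at A971, and its 1M7 reactivity was 0.0402 in Nob1, -0.138 in Rio1, -0.346 in 80S_like and 0.0488 in 80S.

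The 3 reagents marked partly different stops of 80S. At a reactivity of 0.3, 1M7 and DMS shared 23 stops, 47.9% of the 48 of 1M7 and 45.1% of the 51 of DMS. NAI and 1M7 shared 10, 30.3% of the 33 of NAI and 20.8% of those of 1M7, and DMS and NAI shared 9, 17.6% of those of DMS and 27.3% of those of NAI. A856 before h22, A1062 in the h26 loop and A1132 in h27 were reactive with all 3. A856 had 3.03 with 1M7, 0.403 with NAI and 1.92 with DMS.

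Untreated RNA stopped strongly at few platform positions, and these coincide with several of the largest reactivities. A859 had a rate of 0.166 in the late control, 0.137 in the 80S DMSO column and 0.158 in the DMS control, all of 18S, against 0.201 in the mid-early control and 0.147 in the Tsr1 DMSO column, both of 20S. A1023, A974 and A856 followed, with 0.162, 0.160 and 0.126 in the late control and 0.173, 0.146 and 0.134 in the mid-early control. A955 had 0.170, 0.104 and 0.180 in the 3 columns of 18S and 0.0865 and 0.0878 in the 2 of 20S, without overlap. Platform stops at which all 18S columns lay above all 20S columns numbered 22, 7.59% beside a background of 7.62%. Stops at which they all lay below numbered 88, 30.3% beside a background of 21.0%. These are 3 columns against 2, with no test; the strain differs along with the form of the rRNA, and they cannot be told apart.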

How the data were processed

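The authors deposited 1 table of drop-off rates, a fraction between 0 and 1 for each nucleotide of the 18S, with 17 columns that are means over the samples of a group, per the file header. Per the labels' protocols, cDNA was primed with random hexamers from purified rRNA. Per the submitters' processing notes, Novoalign 2.07 was among the tools. The sources used here give neither reference nor rate formula nor depth, so no counting interval can be set. Matched controls were subtracted and each column was scaled by the mean of the 8% of values below its top 2%, leaving out position 1. The stage comparison used limma 3.58.1 (R 4.3.3) with a mean-variance trend on log2(max(reactivity, 0) + 0.1), over all 18S stops with a mean of at least 0.1, and Benjamini-Hochberg adjustment. This scale understates changes of low values. The fit was tested on simulated data. Tables were made in Python 3.11.15 with pandas 2.3.3 and numpy 2.4.6.

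Stops that may be named were those called, the 10 largest non-overlapping rises and falls of log2 1 or more, modified sites, the 3 loops, the 5 highest stops per stage mean, NAI, DMS and untreated columns, the 3 largest changes per pair and the highest stop per segment. The members, lists and this rule were chosen with earlier results of these data known. Alternatives were other controls, pseudocounts (0.05 and 0.2), filters (none and 0.3), scaling, a linear scale, no trend, the 5' nucleotide as position, and leaving out each purification.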

Additional observations from a re-analysis of the deposited data

Results flagged for a closer look

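Among 138 groups of 4 columns, formed by 69 named stops in 2 stages, 8 held a column far from the other 3. The rule flags about 1 in 20 groups by chance, and this count was near that rate. The stops were named partly for extreme values and share columns and controls, so the count cannot tell chance from a pattern. In the late stage it was 80S at each of 4 stops: U908 of the h23 loop (0.445, with 1.84 to 2.01 in the other 3), C1006 of the h24 loop (-0.298, with 0.334 to 0.431), A1062 of the h26 loop (1.02, with 0.0846 to 0.153) and G1064 of h26 (0.0176, with 0.0868 to 0.100). In the mid-early stage it was Rio2 at 3 stops of h24: G985 (0.549, with 0.221 to 0.247), U1004 (2.05, with 1.52 to 1.57) and C1007 (0.669, with 0.154 to 0.202). Enp1 stood apart at U912 (0.0427, with -0.178 to -0.173).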

How the results depend on the processing

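The 4 rises and 1 fall called in the platform kept their number with pseudocounts of 0.05 and 0.2, with scaling by the median, without the mean-variance trend and with stops counted by their 5' nucleotide. Rises numbered 0 with 1 common control, 0 without subtraction, 0 on the linear scale, and 1 with no filter or with a filter at 0.3. Falls numbered 0 with 1 common control and 0 with a filter at 0.3; without subtraction 1 fall was called, at U1117 and not at G980. Leaving out 1 purification gave 0 to 7 rises and 0 to 8 falls, the highest without 80S. A973 reversed, to -0.18 with 1 common control and -0.13 without subtraction. The stages' untreated rates at the 4 rises differ, as given above, and the cause of the calls was not tested. NAI on 80S reached 0.3 at 15 platform stops with 1 common DMSO control, in place of 33; no other count of reactive stops moved past 1.5 times. The other 14 stops whose differences were followed through these settings kept their sign. No paired analysis was possible because the deposited table holds 1 mean column per group, without replicate numbers. Depth is unknown, so low rates carry an unknown counting error, and shared controls leave control error outside every p-value.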
